A study of Mus musculus with 24 samples.

Results

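The Mup probes described here are the probes whose symbol begins with Mup in the study's list of lncRNAs specific to liver. The list holds 48 lncRNA probes, and 5 of them met the rule, of 60804 transcript probes on the array: Mup-ps18 (probe ASMM10P027203, transcript ENSMUST00000120145), Mup-ps12 (ASMM10P001297, ENSMUST00000126217), Mup11 (ASMM10P027191, ENSMUST00000148206), Mup-ps15 (ASMM10P028916, ENSMUST00000121741) and Mup2 (ASMM10P027184, ENSMUST00000148940). RNA came from male ICR mice aged 8 weeks (liver, brain, heart, kidney and testis) and from 3 untreated mouse cell lines in culture. The embryonal carcinoma line F9 was grown on gelatin. GC-1 and GC-2 are immortalized lines of male germ cells, with GC-1 taken as the earlier stage, before meiosis, and GC-2 as a model of the spermatocyte. Each of the 8 groups had 3 arrays, 24 in all, which the methods describe as biological replicates. No line derived from liver was among the groups, and all animals were male, so neither sex nor age was compared.

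The study's criteria for the list were detection on the 3 liver arrays, absence from the other tissues, a fold of at least 5 and a p of at most 0.05 against them. The contrast of liver with the 4 other tissues therefore decided the choice: the Mup probes were selected on their liver intensities against those of brain, heart, kidney and testis, and their values in that contrast are given as a description without a test. As a stand-in here, a probe had to be detected on the 3 liver arrays, to be undetected on at least 1 array of each other tissue, and to pass the fold and an adjusted p of 0.05 in limma against each. This looser form of absence was met by 0.480% of all probes, among them the 5 Mup probes and the other 43 of the list. Of these, 3 Mup probes and 28 of the others were detected on no array of another tissue, while Mup-ps18 was detected on 1 kidney and 1 testis array and Mup11 on 1 brain array. The 9 cell line arrays took no part in the choice. The lowest liver excess in the list was a log2 difference of 3.91 over the nearest other tissue (AK044545), on the scaled levels well past the fold criterion, and that of the Mup probes was 10.04 (Mup2). The list name calls the transcripts lncRNAs and the symbols of 3 call them pseudogenes. The RefSeq annotation of GRCm38.p6 lists Mup-ps18 as a pseudogene, Mup-ps15 as a lncRNA, and Mup-ps12, Mup11 and Mup2 as protein-coding, so the set is called the Mup probes here.

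Mup genes encode major urinary proteins, small secreted members of the lipocalin family. The proteins are made in large amounts by hepatocytes, pass through the blood into urine and carry volatile pheromones in a hydrophobic pocket. Expression in mouse liver is higher in males and depends on the pulsatile secretion of growth hormone, which acts through the transcription factor STAT5. The genes lie in 1 cluster that grew by repeated duplication, in which nearly identical coding genes alternate with pseudogenes.

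In the RefSeq table, 44 genes of that name lay on chromosome 4 of GRCm38.p6, between 59956804 and 62150841, a span of 2194038 bases. Of these, 24 were protein-coding, 19 were pseudogenes and 1 was a lncRNA. Mup2 (60135913 to 60139977) and Mup11 (60658466 to 60662432) were coding genes in the part of the cluster that came first by coordinate. The other genes lay further along, Mup-ps12 at 61440589 to 61538481, Mup-ps15 at 61675160 to 61702571 and Mup-ps18 at 61874703 to 61883317. The RefSeq span of Mup-ps12 covered 97893 bases and contained Mup16 whole. Exons of the array's transcripts were not analysed here. The list gave no position for any Mup probe, so the symbols were the only link between these probes and the annotation, and Mup2 is also an older name of Mup6 and Mup9, and Mup11 of Mup13 and Mup19. Probe sequences were not used here, so signal from a close copy of a named gene cannot be told apart from signal of the gene itself.

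**Figure D1:**
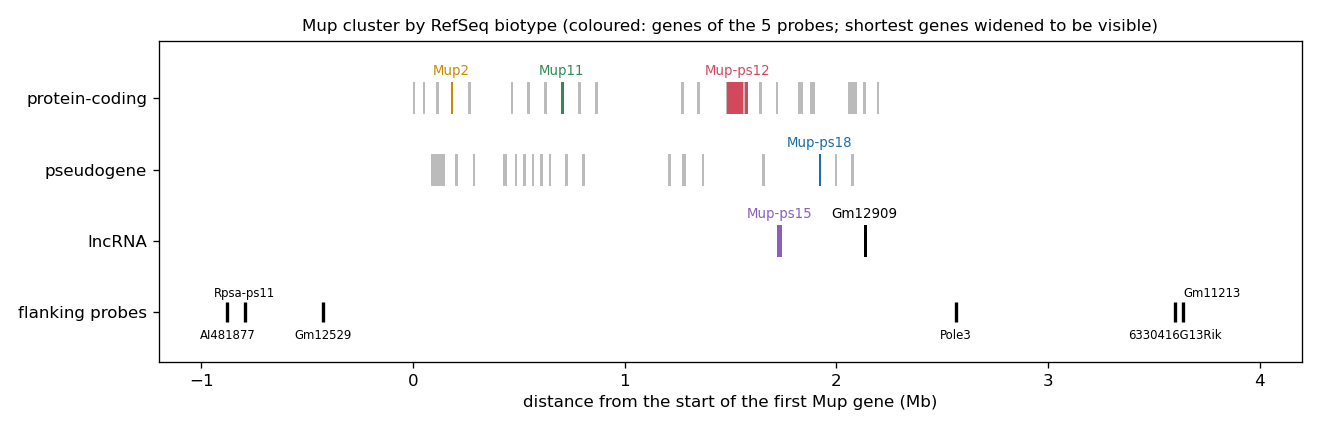
Map of the Mup cluster, with distance in Mb from the start of the first Mup gene on the x axis and RefSeq biotype on the y axis. Grey bars are the other Mup genes, coloured bars are the genes of the 5 Mup probes, the black bar is Gm12909, and ticks mark the 6 flanking probes. The genes of the Mup probes fall in 3 biotypes and are spread through the cluster.

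The promoter table of RefSeq held windows for 4 of the 5 genes, running from 250 bases before to 50 bases after an annotated start and written 5′ to 3′ on the strand of the gene. They are shown because they separate the coding genes from the transcripts named as pseudogenes. Capitals mark TATATAA, letters of a TATA box, and TGTTTAC, a core of the sites bound by FOXA factors, both searched on either strand. The window of Mup2 is chr4:60139807-60140106 and that of Mup11 is chr4:60662346-60662645, both on the minus strand. Those of Mup-ps12, chr4:61440339-61440638, and Mup-ps15, chr4:61674910-61675209, are on the plus strand and are the first of 9 and of 5 windows listed for these genes.
Mup2: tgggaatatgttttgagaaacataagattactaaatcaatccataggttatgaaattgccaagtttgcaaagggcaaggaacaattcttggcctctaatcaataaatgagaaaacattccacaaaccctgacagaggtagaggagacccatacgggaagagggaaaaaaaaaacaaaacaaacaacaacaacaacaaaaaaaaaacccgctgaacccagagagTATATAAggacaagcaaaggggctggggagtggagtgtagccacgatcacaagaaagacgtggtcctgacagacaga
Mup11: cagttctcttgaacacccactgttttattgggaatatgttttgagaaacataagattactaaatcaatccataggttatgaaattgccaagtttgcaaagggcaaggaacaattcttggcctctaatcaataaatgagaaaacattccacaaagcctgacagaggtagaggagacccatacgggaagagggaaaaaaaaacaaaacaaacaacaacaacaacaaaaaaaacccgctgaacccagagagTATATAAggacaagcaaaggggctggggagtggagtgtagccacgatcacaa
Mup-ps12: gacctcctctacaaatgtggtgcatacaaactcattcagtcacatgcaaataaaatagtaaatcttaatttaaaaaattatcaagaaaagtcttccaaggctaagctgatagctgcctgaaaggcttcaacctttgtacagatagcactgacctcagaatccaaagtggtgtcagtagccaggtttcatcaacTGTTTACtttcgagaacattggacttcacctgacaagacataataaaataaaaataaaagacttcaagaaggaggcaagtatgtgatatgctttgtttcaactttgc
Mup-ps15: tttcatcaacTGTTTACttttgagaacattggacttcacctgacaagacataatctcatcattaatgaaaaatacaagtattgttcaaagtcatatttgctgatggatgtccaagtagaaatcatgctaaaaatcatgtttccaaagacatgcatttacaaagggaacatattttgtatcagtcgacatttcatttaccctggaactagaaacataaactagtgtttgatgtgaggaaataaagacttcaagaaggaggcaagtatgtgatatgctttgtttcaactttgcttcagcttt

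The Mup2 and Mup11 windows were 98.5% identical over the 275 aligned positions where they overlapped, and the longest stretch without a difference was 125 bases. Both held TATATAA on the strand shown, a motif present in 3.24% of all 32851 promoter windows. It began at base -27 from the start used for the Mup2 window, where a TATA box usually lies, and at base -2 from that of Mup11. The RefSeq spans of both genes reached further upstream than these starts. The Mup-ps12 and Mup-ps15 windows matched the Mup2 window at 51.9% and 52.9% of aligned positions and held no TATATAA. These windows held TGTTTAC, present in 3.65% of all windows, at base -57 in Mup-ps12 and base -240 in Mup-ps15. They were 61.6% identical to each other over 328 aligned positions, and the longest stretch that they shared without a difference was 51 bases. Matches to TTCNNNGAA, the STAT consensus, were in none of the 4 windows and in 8.30% of all windows.

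Mup-ps12 and Mup-ps15 each began beside a coding gene of the opposite strand. By the starts of the promoter windows, Mup-ps12 began 885 bases from Mup15 and Mup-ps15 began 1066 bases from Mup18. The genes of each pair pointed away from each other, and 755 and 1027 bases lay between their RefSeq spans. Gm12909, a lncRNA gene of the cluster that was chosen for mention after its values were seen because its probe was also in the liver list, stood the same way to Mup3, at 966 bases. Its first window, chr4:62088033-62088332, was 86.8% identical to that of Mup-ps15 over 228 aligned positions and held TGTTTAC too. For Mup-ps18, with no window in the table, the designed primers of the study's qRT-PCR are the sequences at hand. By that qRT-PCR the paper reports the transcript as expressed only or mainly in liver. Neither primer was found in any promoter window, which says little, as none of the windows belongs to this gene.
Mup-ps18 forward primer: tgagactttttctggagcacatct
Mup-ps18 reverse primer: ttctgttttgtcagcaaccatag

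Signal is the intensity after Agilent's background subtraction, and a level is its log2 value minus the log2 of the array's 75th percentile, so that 0 is the 75th percentile. That percentile was an intensity of 30.7 to 49.8 on the liver arrays and 63.5 to 384 on the others, so scaling raised liver levels against every other group. The median probe was 0.88 (heart) to 1.96 (testis) higher in liver on the scaled log2 scale, while without scaling the median difference was -0.03 (F9) to -1.15 (testis). A spot counted as detected if the software flagged it well above background, which on the arrays took an intensity of at least 10.996 to 25.3. Liver replicate 1 stood apart, with a 95th percentile of negative control spots of 13.6 against 2.97 to 4.97 outside liver. Marker probes were read against the tissue labels, and each had been listed by the study from these arrays. Of 11 hepatocyte genes, 3 had a probe named in the study's lists (Apoa1, Tdo2 and Pon1). These are lncRNA probes of the liver list, not probes of the mRNAs, and each was detected on 3 of 3 liver arrays. The brain markers Snap25, Gap43 and Mobp, Nrap of heart, AI314278 of kidney and 1700027A15Rik of testis were each detected on 3 arrays of their own tissue and on no liver array. Gap43 was in addition detected on 2 of 3 heart arrays and on the 9 cell line arrays, where F9 read 2015 to 5317. A probe named for Clec4g of sinusoidal endothelium was detected on 3 liver arrays and on 2 of 3 heart arrays, and no probe was named for Kupffer cells, cholangiocytes or red blood cells.

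All 5 Mup probes were detected on each liver array, which their list required, beside 26.8% of all probes. Mup-ps18, a pseudogene, gave liver intensities of 124479, 185419 and 170021 in replicates 1 to 3, which correspond to levels of 11.29, 12.56 and 12.03. Its 3 brain arrays read 9.40, 13.75 and 7.94, and its 3 heart arrays 2.48, 2.76 and 2.67. Kidney gave 2.82, 18.9 and 6.50 and testis gave 40.2, 3.04 and 3.02. The liver arrays lay far above all 21 others, and of those only kidney replicate 2 and testis replicate 1 were well above background. The 9 cell line arrays read 2.91 to 3.51, close to the negative control spots. Each array measured RNA of a whole organ or culture, in which fewer cells of a type and less RNA per cell cannot be told apart.

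Mup-ps12, whose RefSeq span is annotated as coding, gave liver intensities of 34082, 37629 and 23469.5 and levels of 9.42, 10.26 and 9.18. Its 21 arrays outside liver ran from 2.63 to 8.47, with a median of 3.30, and none was well above background. Mup-ps15, the lncRNA, gave 1640.3, 2674 and 2012 in liver, at levels of 5.04, 6.45 and 5.63. Outside liver it ran from 2.93 to 5.77, with none of 21 arrays well above background. For both probes the gap between liver and the other tissues followed from their choice.

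Mup11, a lncRNA of the list whose RefSeq gene is coding, gave 11158, 9979 and 8452 in liver, at levels of 7.81, 8.35 and 7.70. Brain gave 14.5, 8.50 and 3.18, of which replicate 1 was well above background, and the other 20 arrays outside liver were at or below 9.10 and not detected. Mup2, also a listed lncRNA whose RefSeq gene is coding, gave 1869.7, 1365 and 1084 in liver, at levels of 5.23, 5.48 and 4.74. Its GC-2 arrays read 3.03, 3.47 and 50.7, and the other arrays outside liver did not exceed 3.59. GC-2 replicate 3 thus stood apart from the other 20 arrays outside liver, and the other GC-2 arrays were at background. Whether the Mup11 and Mup2 probes read mRNA of the coding genes was not analysed here.

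**Figure D2:**
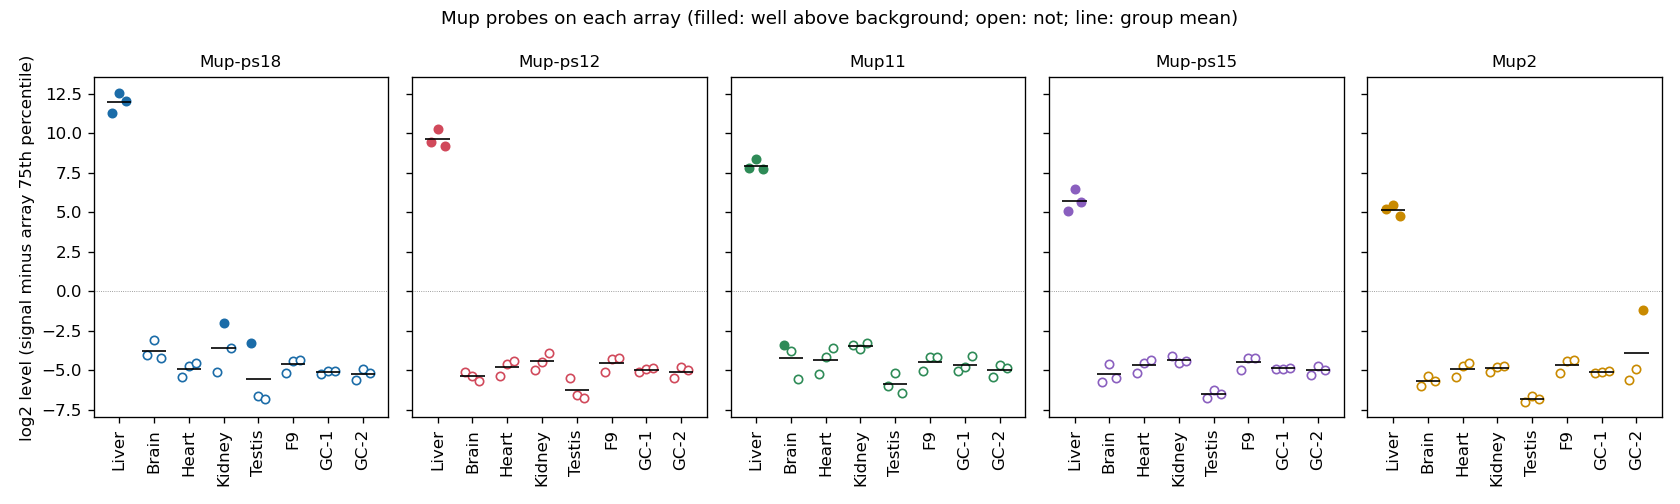
Level of each Mup probe on each of 24 arrays, as log2 signal minus the 75th percentile of the array (y axis), by group (x axis, 3 arrays each). Filled points were well above background, open points were not, and lines are group means; the 4 filled points outside liver are Mup-ps18 in kidney and testis, Mup11 in brain and Mup2 in GC-2.

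The liver replicates differed more for some Mup probes than for others. The liver mean was 11.96 ± 0.64 for Mup-ps18, 9.62 ± 0.57 for Mup-ps12, 7.95 ± 0.35 for Mup11, 5.71 ± 0.70 for Mup-ps15 and 5.15 ± 0.38 for Mup2 (SD, n = 3). These SDs of 0.35 to 0.70 lay within the range of 0.08 to 0.90 over the other 43 liver lncRNA probes, whose median SD was 0.48. After scaling, replicate 2 was the highest of the 3 for each Mup probe. In unscaled intensity the order split the set. Mup-ps18 and Mup-ps15 were 1.49 and 1.63 times as bright on replicate 2 as on replicate 1, whereas Mup11 and Mup2 were 0.894 and 0.730 times as bright, and Mup-ps12 lay between at 1.104. Mup-ps18 and Mup-ps15 were lowest on replicate 1, the array with the raised negative controls, and Mup11 and Mup2 were highest there. The part of that array in these orders was not tested.

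The liver excess over each other group is a measured difference of mean levels, and a lower bound on the fold was computed with undetected spots set to the lowest signal well above background on their array. Both rest on the scaled levels unless stated, and scaling raised liver against the other groups, so the bound was also computed from the unscaled intensities, an alternative added after seeing the data. The smallest measured difference over a tissue was 15.54 ± 0.85 for Mup-ps18, 14.07 ± 0.40 for Mup-ps12, 11.40 ± 0.52 for Mup11, 10.06 ± 0.37 for Mup-ps15 and 10.04 ± 0.28 for Mup2 on the log2 scale (SE of the fit to 15 tissue arrays), each against kidney. The unscaled intensities gave the smaller bounds. There the smallest bound over a tissue was against testis for each Mup probe. Liver was at least 7919-fold higher for Mup-ps18, 2268-fold for Mup-ps12, 715-fold for Mup11, 151-fold for Mup-ps15 and 102.4-fold for Mup2. On the scaled levels the smallest bounds were 22692-fold for Mup-ps18, against kidney, and 5104.5-fold for Mup-ps12, 1608-fold for Mup11, 339-fold for Mup-ps15 and 230.4-fold for Mup2, against heart. Which tissue gave the smallest bound therefore depended on the scaling. With undetected spots set to the floor of their array, it also depended on those floors, so the order of the other tissues was not read further.

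Within slides, the liver excess had the same direction in each comparison. For the tissues, the same arrays had served to choose the probes, so that direction is a description and no test. Replicate 1 of every group was on slide 1, and there the difference between liver and the 7 other groups was 14.55 to 16.91 for Mup-ps18 and 10.32 to 12.25 for Mup2. On slide 2, which held the other liver, brain, kidney and testis arrays, it was 15.11 to 19.03 for Mup-ps18 and 9.90 to 11.81 for Mup2. On slide 1, liver replicate 1 had a scan date of its own in the scanner header, so liver and scan cannot be told apart there. Without liver replicate 1 the smallest difference over a tissue was 15.88 for Mup-ps18, 14.17 for Mup-ps12, 11.48 for Mup11, 10.39 for Mup-ps15 and 10.00 for Mup2. Without scaling it was 13.93, 12.78, 10.32, 8.97 and 8.85 in the same order.

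**Figure D3:**
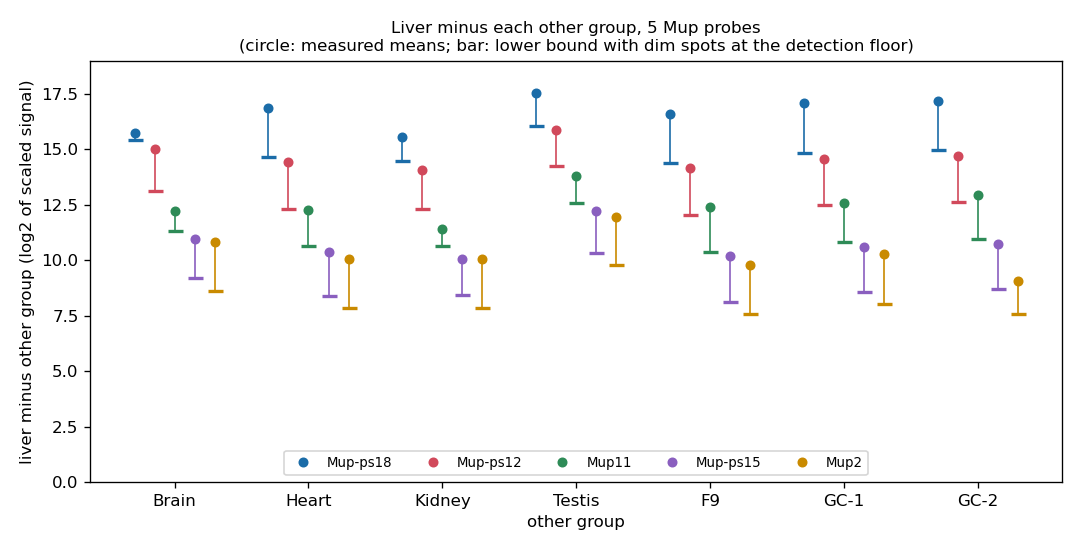
Liver minus each other group on the log2 scale (y axis) for the 5 Mup probes, by other group (x axis). Circles are differences of mean levels, and bars are lower bounds with undetected spots at the detection floor, both on scaled levels; the lowest bound shown is that of Mup2 against F9, at a log2 value of 7.56.

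The cell lines, which the choice of probes did not use, held almost no Mup signal. Of 45 spots (5 probes on 9 arrays), 1 was well above background, Mup2 on GC-2 replicate 3. That is 2.22%, beside 38.7% to 47.1% of all probes on the same arrays and 7.49% of the spots of the other 43 liver lncRNA probes. Liver exceeded the nearest line by 16.60 for Mup-ps18, 14.17 for Mup-ps12, 12.41 for Mup11 and 10.19 for Mup-ps15, each against F9, and by 9.05 for Mup2 against GC-2. The smallest bounds from the unscaled intensities were against GC-2, at least 10328-fold, 2037-fold, 642-fold and 135-fold in the same order, and at least 61.8-fold for Mup2, with 1 of 3 GC-2 arrays detected. On the scaled levels the smallest bounds were against F9, at 21245-fold, 4189.7-fold, 1319.9-fold, 278-fold and 189-fold, with Mup2 last. Liver and line arrays came from different hybridization slides apart from replicate 1.

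Between the lines, no Mup probe passed an adjusted p of 0.05 and a fold of 5 in limma's test. F9 against GC-1 gave 0 of 5, beside 7.15% of all probes called, F9 against GC-2 gave 0 of 5, beside 6.91%, and GC-1 against GC-2 gave 0 of 5, beside 3.32%. No Mup probe had an unadjusted p under 0.05 in these 3 comparisons, and the methods' t-test called 0 as well. For 4 of the 5 probes both groups of each comparison were below detection, so the arrays set only upper limits there. For Mup2, F9 minus GC-2 was -0.75 ± 0.84 (SE) with an adjusted p of 0.49 in limma, and GC-1 minus GC-2 was -1.21 ± 0.84 with an adjusted p of 0.53.

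Against testis, limma called 0 of 5 Mup probes in F9, beside 26.6% of all probes, 0 in GC-1, beside 27.3%, and 1 in GC-2, beside 27.9%. Unadjusted p-values under 0.05 numbered 4, 3 and 4, and the methods' t-test called 0 in each. The median Mup probe was 1.72 higher in F9 than in testis on the scaled log2 scale, beside 1.63 for the median of all probes, and the corresponding pairs were 1.30 and 1.43 for GC-1 and 1.17 and 1.35 for GC-2. These shifts of the Mup probes lay near those of the median probe, and for 3 of the 5 probes no array of either group was detected in any of the 3 comparisons.

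The probe called in GC-2 was Mup2, at 2.91 ± 0.84 (SE) above testis with an adjusted p of 0.0071 in limma, and the call rested on 1 array. Testis read 2.97, 3.13 and 3.03 and GC-2 read 3.03, 3.47 and 50.7, so that GC-2 replicate 3 alone lay apart from the rest. Without GC-2 replicate 3 the difference was 1.54 ± 0.31 with no array of either group detected. It was 2.35 ± 1.31 with slide as a block (adjusted p = 0.14 in limma) and 1.41 ± 0.84 without scaling (adjusted p = 0.21). On slide 1, the slide that testis and the lines shared, Mup2 was 1.42 higher in GC-2 than in testis, from intensities of 3.03 and 2.97.

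Over the 21 arrays outside liver, 4 of 105 Mup spots (3.81%) were well above background, against 51 of 903 spots (5.65%) of the other liver lncRNA probes. The 4 spots were on 4 arrays and concerned 3 probes. On none of these arrays was a further Mup probe detected. The same arrays detected 2 (brain replicate 1), 0 (kidney replicate 2), 4 (testis replicate 1) and 2 (GC-2 replicate 3) of the other 43 liver lncRNA probes. With the more lenient flag for a positive and significant signal, 13 of the 21 arrays had a Mup spot. That was 25 of 105 Mup spots, beside 416 of 903 spots of the other liver lncRNA probes. Mup11 accounted for 12 such arrays, among them 3 each of brain, kidney and testis, and Mup-ps18 for 6, among them 3 of brain. The intensities at those Mup11 spots were 3.18 to 14.5, against liver values of at least 8452.

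Most of the 48 liver lncRNA probes were at background outside liver, where measured differences between probes have no order, so they are set side by side by their lower bounds. The smallest scaled log2 bound over a tissue was 14.47 for Mup-ps18, 12.32 for Mup-ps12, 10.65 for Mup11, 8.41 for Mup-ps15 and 7.85 for Mup2, and over the other 43 probes it ran from 2.40 to 9.77. The median was 10.65 over the Mup probes and 4.48 over the others, and without scaling it was 9.48 and 3.33. The 3 other probes with the largest measured difference were Cyp2d37-ps, a pseudogene of the cytochrome P450 family, and those named for Cyp2c40 and Cyp2c70, P450 genes of that family, with bounds of 9.21, 9.77 and 8.52. Gm11212 (9.46) and Nr1i3 (8.42) also had bounds above those of Mup-ps15 and Mup2. The liver arrays had been used to choose the 48 probes, so these values describe the list and were not tested. Gm12909, the further lncRNA gene of the cluster, was lower in excess than any Mup probe. It gave 140 to 206 in liver, was detected on 3 of 3 liver arrays and on none of 21 others, and exceeded heart by 6.39 ± 0.43 (SE).

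**Figure D4:**
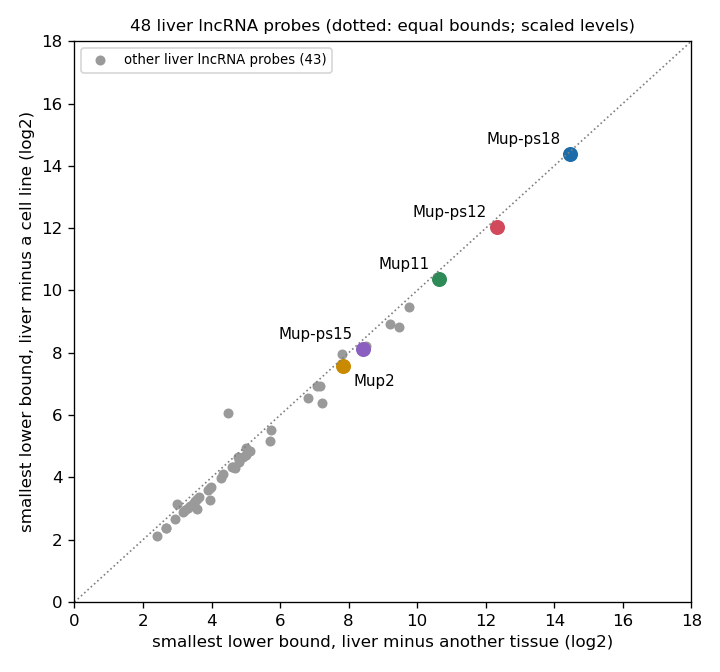
Smallest lower bound of liver over another tissue (x axis) against that over a cell line (y axis), both as log2 differences of scaled levels with undetected spots at the detection floor, for the 48 liver lncRNA probes. Coloured points are the 5 Mup probes and grey points the other 43; 3 Mup probes lie beyond all grey points on both axes.

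Likeness of pattern was measured as Pearson's r of levels over the 24 arrays, as a description. The 24 points fall into 3 liver arrays and 21 others, so that any probe restricted to liver scores high. Mup-ps12 and Mup-ps15 correlated at 0.99 with each other. Mup-ps12 was the 3rd most similar of 60803 probes to Mup-ps18 (r = 0.99) and the 2nd to Mup11 (r = 0.99). In the other direction, Mup-ps18 ranked 46 and Mup11 ranked 34 among the probes most like Mup-ps12. Mup2 was the least like the rest, at r = 0.94 to 0.97, and ranked 145 to 229 among the probes most like each other Mup probe. Mup2 was also the probe with a spot of 50.7 on GC-2 replicate 3, and the part of that spot in these values was not tested. The most similar probes with a symbol outside the set were Gm5843 for Mup-ps18 (r = 0.97) and Mup-ps12 (r = 0.99), Cyp2c40 for Mup11 (r = 0.99), Cyp2c70 for Mup-ps15 (r = 0.99) and XLOC_022010 for Mup2 (r = 0.97). The others among the closest 3 of any Mup probe were Apoa1, Gm8883 and Lsg1, and of these closest probes Lsg1 was the one that was not in the liver list.

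Other genes of the Mup pathway could be read only in part. Of 15 lipocalin genes and 11 known regulators of Mup expression, the named probes covered none and 1, the lncRNA probe of Nr1i3, a nuclear receptor gene. It read 1592 to 3160 in liver and was detected on no other array. Of 7 genes known for male-biased liver expression, 2 had a named probe, and the probes of Ces3b (35.7 to 67.1) and Akr1c6 (99.8 to 219) were detected on each liver array and on 1 array each outside liver. These 3 probes were in the liver list too. No probe was named for the growth hormone receptor or STAT5 genes of the list, so their levels were not analysed here.

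Around the cluster, 6 probes for which the study listed a position lay within 2 Mb of the outermost Mup genes. The liver list gave no positions, so its probes could not be among them, and the 6 came from lists for testis and F9. AI481877 and Gm11213 came from a list of lncRNAs specific to testis, and had thus been chosen for their absence from the other tissues. Rpsa-ps11, Gm12529, Pole3 and 6330416G13Rik came from a list of lncRNAs detected in F9, into which the contrasts of liver with brain, heart and kidney did not enter. None of the 6 was called between liver and brain, beside 14.1% of all probes, between liver and heart, beside 10.2%, or between liver and kidney, beside 7.90%, in limma's test. Unadjusted p-values under 0.05 numbered 1, 2 and 1, and the methods' t-test called 0 in each. AI481877 against brain and heart, and Gm11213 against kidney, had no detected array in either group and could not be called. The p-value under 0.05 against brain, and 1 of those against heart, belonged to AI481877. Against testis, 2 were called, beside 25.4% of all probes. For AI481877 and Gm11213 the contrast of testis with liver had entered the choice, so a call there is a description and no test.

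The flanking probes with clear signal were present in every tissue. Gm12529, 423790 bases before the first Mup gene, had a level of 6.02 ± 0.65 in liver, 5.49 ± 0.04 in brain, 8.14 ± 0.30 in heart, 6.39 ± 0.23 in kidney and 3.72 ± 0.12 in testis (SD, n = 3). Liver minus heart was -2.11 ± 0.29 (SE), with an adjusted p of 4.5e-05 in limma but under the 5-fold threshold. Pole3, whose gene encodes a subunit of DNA polymerase epsilon, lay 371808 bases past the last Mup gene and had 5.05 ± 0.20 in liver and 4.75 ± 0.12 to 5.62 ± 0.12 in the other tissues. Rpsa-ps11, named as a pseudogene of the ribosomal protein gene Rpsa and lying 793648 bases before the first Mup gene, had 7.21 ± 0.54 in liver and 6.73 ± 0.35 to 7.42 ± 0.23 in brain, heart and kidney, with testis at 4.62 ± 0.16. 6330416G13Rik, 1408015 bases past the last Mup gene, had 6.37 ± 0.15 in liver and 5.18 ± 0.26 to 6.60 ± 0.33 in the other tissues. The lists that supplied these probes could not have held one restricted to liver, so their presence elsewhere says nothing of the other genes around the cluster. Placed by its symbol, Gm11212 of the liver list lay 1199532 bases past the last Mup gene, nearer than 6330416G13Rik and Gm11213, and was chosen for mention after its values were seen. RefSeq lists it as a pseudogene with the older name Orm-ps, and Orm genes encode orosomucoids, plasma proteins of the lipocalin family. It read 5761 to 8776 in liver, 5.72 to 47.0 in heart with 1 array detected, 27.7 to 103.2 in GC-1 with 3 arrays detected, and up to 17.8 in F9 with 1 array detected, and it was detected on no array of the other groups.

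AI481877 and Gm11213, which the study listed as specific to testis, were not well above background on any liver array, at intensities of 6.97 to 13.05 and 3.21 to 6.16. In testis they read 190.2 to 220.5 and 225.2 to 399. The 2 probes called between liver and testis were Gm11213, at -2.93 ± 0.54 (SE) for liver minus testis, and Rpsa-ps11, at 2.59 ± 0.30, on the scaled log2 scale. The study's list had chosen Gm11213 on this contrast. The direction of Rpsa-ps11 depended on the scaling, since its unscaled intensities were 5381 to 6860 in liver and 8000.5 to 8943 in testis. Quantile normalization called 1 probe against testis, normexp background correction 0 and the unscaled arrays 3.

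**Figure D5:**
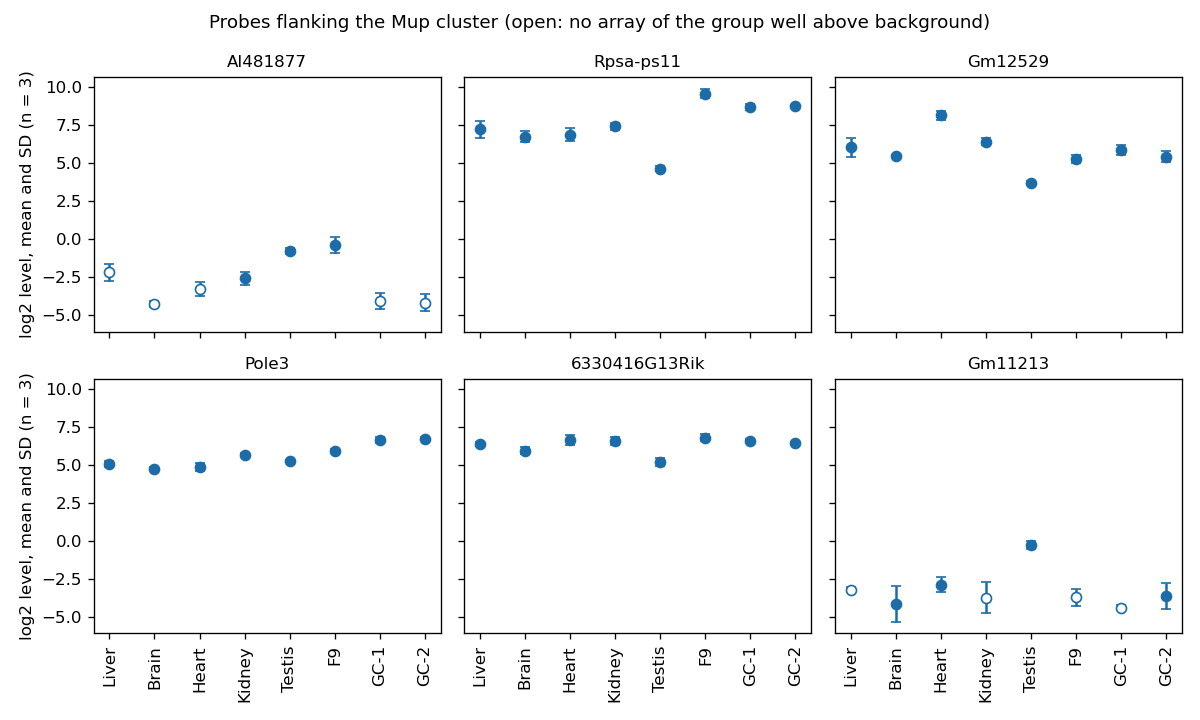
Level of the 6 flanking probes in the 8 groups (mean and SD of 3 arrays, log2 signal minus the 75th percentile of the array). Open points mark groups with no array well above background; Rpsa-ps11, Gm12529, Pole3 and 6330416G13Rik are detected in every group, and AI481877 and Gm11213 are not detected in liver.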

How the data were processed

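Total RNA was labeled with Cy3 and hybridized to 1-colour Arraystar mouse lncRNA arrays. The authors deposited the intensity of each spot from Feature Extraction 11.5.1.1, after background subtraction, with flags. A deposited table holds the same intensities, neither log transformed nor centred. The supplementary sheets gave symbols for 3478 probes (5.72%), and their listed folds and p-values were not used. The listed positions, which the liver list lacks, are GRCm38, and 117 of 117 chromosome 4 probes overlapped the RefSeq gene of their symbol. Promoter windows come from RefSeq on GRCm38.p6.

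The log2 of the processed signal was taken, less that of the array's 75th percentile. Two-sided tests used limma 3.58.1 (R 4.3.3; lmFit and eBayes) on 12 arrays (testis and lines) or 15 arrays (tissues), with 1 coefficient per group and Benjamini-Hochberg adjustment over 60804 probes. A probe was called at an adjusted p of 0.05 or less and a fold of 5 or more, unless no array of either group was well above background. The tests were tried on simulated data. The files hold the median signal, which the normexp alternative (offset 50) used in place of the mean signal. No Mup spot was saturated or marked as an outlier. Other figures and sequence comparisons used Python 3.11.15 and Biopython 1.88.

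Members, gene lists (lipocalins, Mup regulators, male-biased liver genes, cell type markers) and tests were chosen with earlier results of these data known. The text names the 5 Mup probes, the 3 other liver lncRNA probes with the largest measured liver excess, the 6 flanking probes and the 3 named probes most like each Mup probe. The labels and methods differ on the RNA extraction kit. The result of 1 marker list is not reported here.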

Additional observations from a re-analysis of the deposited data

How the results depend on the processing

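Of 458 values recomputed under an alternative, 399 stayed within their limits and none was counted as reversed. That tally did not count the direction of Rpsa-ps11 between liver and testis, which depended on the scaling. The normexp background correction, with its offset, lowered the liver excess over the nearest tissue to 11.77 (Mup-ps18), 9.42 (Mup-ps12), 7.46 (Mup11), 5.40 (Mup-ps15) and 5.14 (Mup2), and over the nearest line to 11.91, 9.39, 7.60, 5.44 and 5.13 in that order. Quantile normalization gave 14.25 (Mup-ps18), 12.98 (Mup-ps12), 10.51 (Mup11) and 9.28 (Mup-ps15) over the nearest tissue and 11.87 (Mup11) and 8.62 (Mup2) over the nearest line. The 50th percentile gave 8.66 for Mup2 over the nearest line. Leaving the arrays unscaled, an alternative chosen after seeing the data, gave 13.93, 12.78, 10.32, 8.97 and 8.85 over the nearest tissue and 15.58, 13.10, 11.11, 9.11 and 7.44 over the nearest line. It lowered the log2 lower bounds to 12.95, 11.15, 9.48, 7.24 and 6.68 over tissues and to 13.33, 10.99, 9.33, 7.08 and 5.95 over lines. Leaving out 1 array, the excess over the nearest tissue ran from 14.77 (without kidney replicate 1) to 15.88 for Mup-ps18, and that over the nearest line from 8.20 (without GC-2 replicate 1) to 9.80 (without GC-2 replicate 3) for Mup2. The call of Mup2 in GC-2 against testis (1 probe) became 0 with quantile normalization, normexp, the 75th percentile of probes detected on all arrays, no scaling, the filter on dim probes, slide as a block, both forms of the methods' t-test and without GC-2 replicate 3, so the leave-one-out count ran from 0 to 1. For the flanking probes, liver against heart gave 1 call (Gm12529) in place of 0 with quantile normalization, normexp, the 75th percentile of detected probes, no scaling and without liver replicate 2. Liver against testis gave 1 call with quantile normalization, 0 with normexp, 3 with no scaling and from 1 (without liver replicate 2) to 3 calls over the arrays left out. The flag for positive and significant signal gave 13 arrays outside liver with a Mup spot, in place of 4. The cause of these changes was not tested.

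The labels do not say whether a replicate number marks a shared animal. Same-numbered arrays had deviations that correlated at -0.14 to 0.29, and 15 of 24 arrays correlated best with arrays of their own number. The median was 0.15 for number 1, 0.05 for number 2 and 0.04 for number 3. Slide 1 held replicate 1 of every group, so a shared animal and a shared slide cannot be told apart. With the replicate number as a block, 1 Mup probe (Mup2, GC-2 against testis, adjusted p = 0.0072 in limma) and 2 flanking probes (liver against testis) were called, as without it, and the other counts stayed at 0. Precision is limited by 3 arrays a group and by the detection floor.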
